A study of Mus musculus with 19 samples.

Results

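Transcripts of 9 genes of steroid hormone signalling were followed in mouse quadriceps. They encode the glucocorticoid receptor (Nr3c1) and estrogen receptor alpha (Esr1), the FK506-binding cochaperones Fkbp4 and Fkbp5, the testosterone reductase Srd5a1, the coactivators Ncoa1, Ncoa2 and Ncoa4, and the ubiquitin ligase Stub1. The members were found by gene name and are 9 of the 24709 genes tested. They were read by 16 of the 39429 probes of the array. The quadriceps came from 180-day-old male C57Bl6J mice that either were wild type (CTR) or carried AR113Q, the knock-in allele of spinal and bulbar muscular atrophy (SBMA), a polyglutamine expansion disease. From 40 days of age the mice of each genotype were fed purified normal chow (NCD) or high-fat chow (HFD). On NCD there were 5 samples of CTR and 5 of AR113Q, on HFD 4 of CTR and 5 of AR113Q, and each was hybridized to an array of its own. The sources used here do not say whether a sample is a single mouse, so p-values measure the spread between these samples. A knock-in is present in the germline, so the allele was not limited to muscle.

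Steroid receptors are transcription factors that wait for their hormone in a complex with HSP90 and exchangeable cochaperones. The FK506-binding proteins in that complex tune how well the receptor binds hormone and how it reaches the nucleus. Once bound by hormone, the receptor recruits coactivators of the Ncoa family, and chaperone-linked ligases such as Stub1 mark misfolded receptor for the proteasome. Skeletal muscle is a target of both androgens and glucocorticoids.

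The array read each transcript through 60-base probes. The first 30 bases of 4 probes are shown, those of the 3 members that passed the test in some comparison and the second Srd5a1 probe, which gave no signal above background. Positions are those of mm9, the build of the files.
Fkbp4, chr6:128380528-128380587: tcccccgttacacacaagtgtatatccttt
Ncoa4, chr14:32992281-32992340: cattttaggttgcagggaactttgtagttt
Srd5a1, chr13:69712376-69712435: agaggaatcttgtcttaacactatactcta
Srd5a1, second probe, chr13:69733518-69733577: ctgaaagtttacatcgtgaaccacagttag
Of the 16 probes, 15 were tested. Esr1 had 4 probes, Ncoa1 had 3, Nr3c1 and Srd5a1 had 2, and the others had 1. The 15 tested probes were called well above background on all 19 arrays, except 1 Esr1 probe (17 arrays). The second Srd5a1 probe was well above background on 0 of 19 arrays, so that this gene rests on a single probe. Signals are given as log2 of the processed signal minus the 75th percentile of the same array. They are compared between groups within a probe and not between genes. Where a gene had several probes, the brightest tested one is given unless stated.

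The promoters of Fkbp4 and Stub1 are shown because both genes encode HSP90 cochaperones and varied together over the arrays. They run from 250 bases before to 50 bases after the transcription start in RefSeq (GRCm38.p6) and are written on the strand of the gene, with each match to GAANNTTC, a pair of inverted heat shock units, in capitals.
Fkbp4, chr6:128438607-128438906, minus strand: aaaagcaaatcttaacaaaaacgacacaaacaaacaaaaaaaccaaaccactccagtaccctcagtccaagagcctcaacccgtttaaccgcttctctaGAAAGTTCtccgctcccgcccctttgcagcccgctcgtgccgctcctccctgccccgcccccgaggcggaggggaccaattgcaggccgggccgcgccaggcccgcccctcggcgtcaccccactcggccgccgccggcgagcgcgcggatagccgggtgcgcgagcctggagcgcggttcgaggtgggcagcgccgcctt
Stub1, chr17:25832870-25833169, minus strand: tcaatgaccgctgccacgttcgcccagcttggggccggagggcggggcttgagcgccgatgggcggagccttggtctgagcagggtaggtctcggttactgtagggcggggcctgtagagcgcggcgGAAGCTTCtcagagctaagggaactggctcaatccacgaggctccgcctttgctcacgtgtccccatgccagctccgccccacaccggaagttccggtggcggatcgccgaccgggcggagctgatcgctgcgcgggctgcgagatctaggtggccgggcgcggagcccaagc
Each held 1 match, which began 151 bases before the start of Fkbp4 and 123 bases before that of Stub1. The promoters of Esr1, Ncoa1, Srd5a1, Ncoa4 and Fkbp5 held 0 matches. Whether the motif bears on the shared variation was not tested. Of all 32851 promoters of this length, 7.86% held the motif on either strand. The palindromic steroid response element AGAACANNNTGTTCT was in none of the promoters of the 7 members that the table lists, and in 0.00913% of all promoters. Its half-site AGAACA, searched on both strands, was in the promoters of Ncoa1 and Ncoa4 and in 19% of all promoters. A match is a match of letters only.

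Markers of the muscle fiber, among them the fast fiber genes Myh4, Tnni2 and Pvalb, were present on all 19 arrays for 10 of 10 genes listed. Their summed linear signal, relative to the 75th percentile, was 3949 to 4594 in CTR against 2919 to 3401 in AR113Q arrays on NCD, and 3967 to 4613 against 2728 to 3193 on HFD. It was thus lower in both AR113Q groups, without overlap. As the list holds several fast fiber genes, the sum does not measure all fibers alike. Of the 10 markers, 9 were called lower on each diet, and 1, Des, was called higher on HFD (0.32). The fall of Casq1 was kept by 4 of 4 other scalings on both diets, and those of Actn3, Atp2a1 and Ckm by 3 of 4 on NCD and 4 of 4 on HFD. Those of Acta1, Tnnt3, Myh4 and Tnni2 were kept by 0 of 4 on either diet. That of Pvalb was kept by 0 of 3 on NCD and 1 of 3 on HFD. With quantile normalization Tnni2 moved from −0.29 on NCD and −0.42 on HFD to near 0 in both. The summed signal of 7 slow fiber markers was 14.2 to 367 in CTR against 311 to 628 in AR113Q arrays on NCD, and 4.89 to 433 against 9.49 to 244 on HFD. Their median log2 fold change was 2.32 on NCD and 1.13 on HFD, and 0 were called on either diet. The sums of the white adipocyte (8 genes), fibroblast (6), macrophage (5) and red blood cell (4) markers overlapped between the genotypes on each diet, whereas that of the 2 satellite cell markers detected was 5.28 to 6.19 in CTR and 4.22 to 5.04 in AR113Q arrays on NCD and overlapped on HFD (4.70 to 6.81 and 4.79 to 5.30). On NCD these were Cdh15 with −0.35 (adjusted p = 0.0132 from limma) and Pax7 with 0.14 (0.733). The Schwann cell, endothelial and brown adipocyte sums also overlapped on each diet. For Schwann cells on NCD the overlap was slight (highest CTR 5.351, lowest AR113Q 5.346). A sum follows its brightest genes. The fibroblast marker Lum was called higher on both diets, kept by 1 of 4 other scalings on NCD and 3 of 4 on HFD. The Schwann cell marker S100b was called higher on NCD, kept by 3 of 4. The 75th percentile itself was higher in most AR113Q arrays, with log2 medians of 9.66 in CTR and 9.90 in AR113Q arrays on NCD, and of 9.59 and 9.90 on HFD. The part of fiber composition or of this scaling factor in the differences between genotypes was not tested. In whole muscle, fewer cells of a type and less RNA per cell cannot be told apart.

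To ask whether the genotype changed these transcripts, AR113Q was compared with CTR on each diet. On NCD, Fkbp4 was lower and Ncoa4 higher in AR113Q quadriceps in the main fit, which did not pair arrays by slide. With the replicate number as a block, Srd5a1 also passed the test there (adjusted p = 0.0205 from limma). On HFD, Fkbp4 was again lower and Srd5a1 was higher. Averaged over the diets, Fkbp4, Srd5a1 and Ncoa4 passed the test. The receptors Nr3c1 and Esr1 and the coactivators Ncoa1 and Ncoa2 passed it in no comparison. So 2 of 9 members were called on NCD, where 17.4% of all genes were called at an adjusted p under 0.05. On HFD it was 2 of 9 with 18% of all genes, and averaged over the diets 3 of 9 with 29.1%. These shares are near those of all genes, so the count itself is not a result about the members. At an unadjusted p under 0.05 the count was 5 of 9 on NCD, beside 28.1% of all genes, 2 of 9 on HFD, beside 29%, and 5 of 9 averaged over the diets, beside 38.2%. The median log2 fold change of the 9 was 0.05 on NCD and −0.01 on HFD, against −0.06 and −0.08 over all genes.

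**Figure D1:**
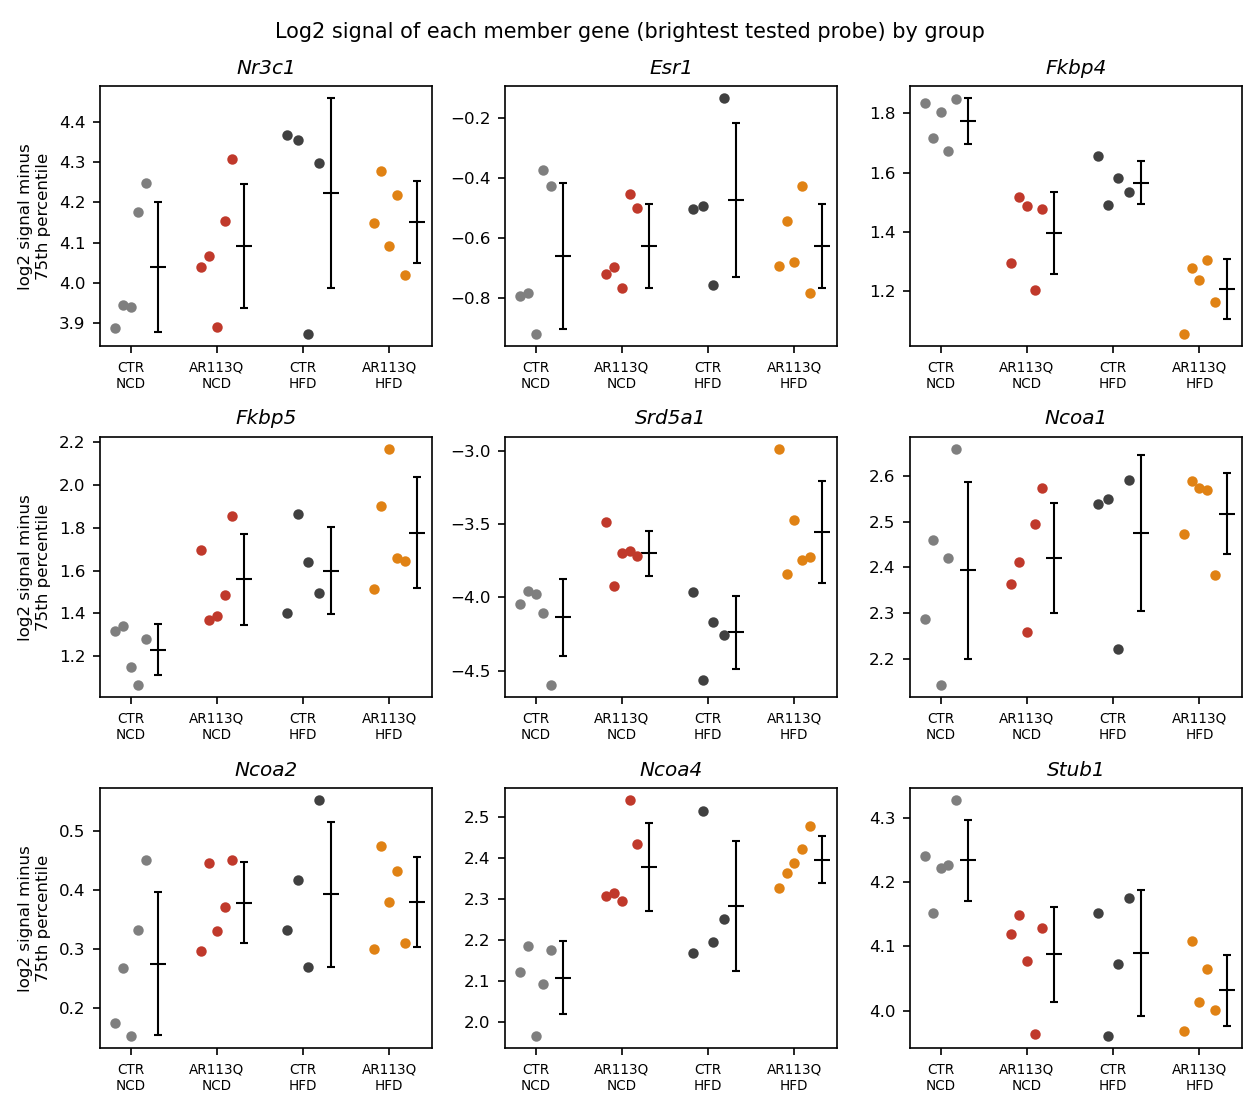
Log2 signal minus the 75th percentile of the array for the brightest tested probe of each member, by group. Points are arrays (5, 5, 4 and 5), and the bars give the mean ± SD. The AR113Q arrays of Fkbp4 sit below the CTR arrays of the same diet, those of Srd5a1 sit above, and the groups of Nr3c1, Esr1, Ncoa1 and Ncoa2 overlap. The vertical scale differs between panels and does not start at 0.

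Fkbp4 encodes the cochaperone that favors hormone binding by steroid receptors. Its log2 signals were 1.83, 1.72, 1.81, 1.67 and 1.85 in the CTR-NCD and 1.30, 1.52, 1.49, 1.21 and 1.48 in the AR113Q-NCD arrays. On HFD they were 1.66, 1.49, 1.58 and 1.53 in the CTR and 1.05, 1.28, 1.24, 1.30 and 1.16 in the AR113Q arrays. Every AR113Q array lay below every CTR array of the same diet. On NCD AR113Q differed from CTR by −0.38 (standard error 0.07, 95% interval −0.53 to −0.23, adjusted p = 0.00136 from limma). On HFD it was −0.36 (standard error 0.08, 95% interval −0.52 to −0.20, adjusted p = 0.00305). The linear level in AR113Q was thus 0.77 of that in CTR on NCD and 0.78 on HFD. The exact permutation test of this probe alone, 2-sided, gave p = 0.00794 on each diet, the smallest that 5 against 5 or 4 against 5 arrays allow. The average over diets was −0.37 (standard error 0.05, adjusted p = 4.1e-05). The 19 arrays lay on 5 slides. Within slides the difference was −0.54 to −0.20 on NCD (5 slides) and −0.60 to −0.21 on HFD (4 slides). Its sign on each slide is fixed by the lack of overlap and adds no support. On NCD and on HFD the call was lost with median centring (adjusted p = 0.176 and 0.252) and with normexp background correction (0.282 and 0.324), with the direction kept. Over all 19 arrays its signal had r −0.61 with the 75th percentile of the array, and 0.24 after the group means were removed. That percentile is subtracted from the signal, so a negative r is partly built in. Over the 31 alternatives adjusted p ranged from 0.000541 to 0.282 on NCD and from 0.00136 to 0.324 on HFD.

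Fkbp5, the other FK506-binding cochaperone, lowers hormone binding by the glucocorticoid receptor and is itself induced by glucocorticoids and androgens. Its log2 signals were 1.32, 1.34, 1.15, 1.06 and 1.28 in the CTR-NCD and 1.70, 1.37, 1.39, 1.48 and 1.86 in the AR113Q-NCD arrays. These groups did not overlap, yet the log2 fold change of 0.33 (95% interval 0.06 to 0.60) did not pass the test over all probes (adjusted p = 0.0921 from limma). On HFD the signals were 1.40, 1.86, 1.64 and 1.49 in the CTR and 1.51, 1.90, 2.17, 1.66 and 1.64 in the AR113Q arrays, which overlapped. The HFD log2 fold change was 0.18 (95% interval −0.11 to 0.46, adjusted p = 0.437). Averaged over diets it was 0.25 with an adjusted p of 0.0511, which passed the threshold in 9 of 30 alternatives (range 0.0264 to 0.237), among them those without AR113Q-NCD replicate 2, AR113Q-NCD replicate 3, CTR-HFD replicate 2 or AR113Q-HFD replicate 1.

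Srd5a1 encodes a reductase that turns testosterone into the more potent dihydrotestosterone. Its log2 signals were −4.05, −3.96, −3.98, −4.10 and −4.60 in the CTR-NCD and −3.48, −3.92, −3.70, −3.68 and −3.72 in the AR113Q-NCD arrays. On HFD they were −3.96, −4.56, −4.17 and −4.26 in the CTR and −2.99, −3.84, −3.47, −3.75 and −3.73 in the AR113Q arrays. The genotypes did not overlap on either diet, but the lowest AR113Q-NCD array was close to the highest CTR-NCD array. On HFD AR113Q differed from CTR by 0.68 (standard error 0.17, 95% interval 0.32 to 1.05, adjusted p = 0.00993 from limma), a linear ratio of 1.61. On NCD it was 0.44 (standard error 0.16, 95% interval 0.09 to 0.78) and did not pass the test (adjusted p = 0.0762). With the replicate number as a block, which on NCD pairs arrays of the same slide, the NCD value passed it (adjusted p = 0.0205). It passed in 6 of 31 alternatives (range 0.0205 to 0.2), among them the one without AR113Q-HFD replicate 1 (0.0337). The average over diets was 0.56 (standard error 0.12, adjusted p = 0.00153).

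Within slides, the Srd5a1 difference was 0.04 to 0.88 on NCD (5 slides) and 0.53 to 0.98 on HFD (4 slides). As the genotypes did not overlap, its sign on each slide was fixed. The probe was dim, and its value moved with the factor used to scale it. After the group means were removed, Pearson's r with the 75th percentile of the array was 0.61 over 19 arrays (permutation p = 0.00553, adjusted p = 0.0249 over 9 members), and Spearman's rho was 0.59 (permutation p = 0.00913, adjusted p = 0.0421). These permutations did not allow for the group means removed, so their p-values can be too small. With the group means kept r was 0.84, and 0.79 without the 2 arrays farthest from the median percentile. Its change turned to −0.73 on NCD and to −0.22 averaged over diets with normexp background correction, and neither passed the test. The part of the scaling factor in the difference between genotypes was not tested. On HFD the call was lost with normexp background correction (0.29, adjusted p = 0.99995) and with only the 2 HFD groups in the fit (adjusted p = 0.0574), and the smallest adjusted p over the 31 alternatives was 0.00147.

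**Figure D2:**
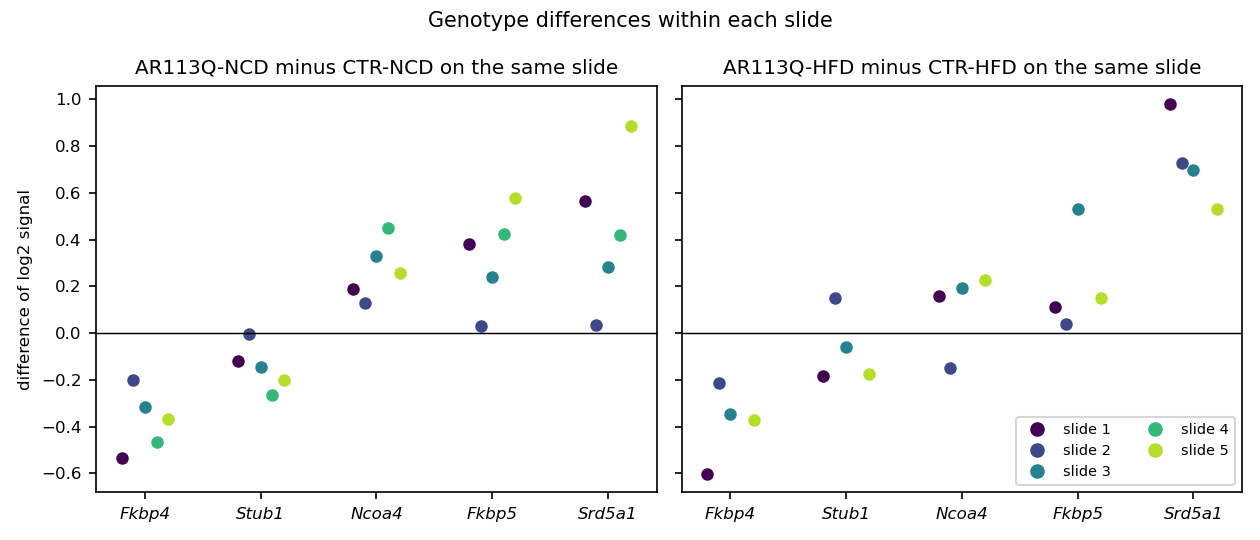
Difference of log2 signal between the AR113Q and the CTR array of the same slide for the 5 members whose groups did not overlap on NCD. Points are slides (5 on NCD, 4 on HFD), coloured by slide. Fkbp4 lies below 0 on every slide, and Srd5a1 and Fkbp5 lie above 0 on every slide. Where the groups do not overlap (all 5 genes on NCD, Fkbp4 and Srd5a1 on HFD), the sign is fixed by that. Slide 2 gives the smallest NCD difference of all 5 genes.

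Ncoa4 was first described as a steroid receptor coactivator and also serves as the receptor that delivers ferritin to autophagy. Its log2 signals were 2.12, 2.19, 1.97, 2.09 and 2.18 in the CTR-NCD and 2.31, 2.32, 2.29, 2.54 and 2.43 in the AR113Q-NCD arrays, without overlap. On NCD AR113Q differed from CTR by 0.27 (standard error 0.07, 95% interval 0.12 to 0.42, adjusted p = 0.016 from limma). Within the 5 slides it was 0.13 to 0.45, with the sign fixed by the lack of overlap. On HFD the signals were 2.17, 2.51, 2.19 and 2.25 in the CTR and 2.33, 2.36, 2.39, 2.42 and 2.48 in the AR113Q arrays, and CTR-HFD replicate 2 lay above all of the AR113Q arrays. The HFD log2 fold change was 0.11 (95% interval −0.05 to 0.28, adjusted p = 0.374). The change on HFD minus that on NCD was −0.16 (95% interval −0.38 to 0.07, adjusted p = 0.9997), so a difference between the diets was not shown. The average over diets was 0.19 (standard error 0.05, adjusted p = 0.0113). The NCD call was lost with normexp background correction (adjusted p = 0.0935) and median centring (0.132), and over the 31 alternatives adjusted p ranged from 0.00469 to 0.132. After the group means were removed, r with the 75th percentile of the array was −0.62 (permutation p = 0.0039, adjusted p = 0.0249), and Spearman's rho was −0.59 (permutation p = 0.00935, adjusted p = 0.0421), over 19 arrays. That percentile is subtracted from the signal, so a negative relation is partly built in and these p-values are no test of it. The permutations also did not allow for the group means removed.

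Ncoa1 and Ncoa2, close relatives that bind hormone-bound receptors and recruit histone acetyltransferases, did not pass the test. On NCD the log2 signal of Ncoa1 averaged 2.39 ± 0.19 (SD, n = 5) in CTR and 2.42 ± 0.12 (n = 5) in AR113Q arrays, and on HFD 2.48 ± 0.17 (n = 4) and 2.52 ± 0.09 (n = 5). Its 3 probes had log2 fold changes of −0.17 to 0.03 on NCD and 0.04 to 0.16 on HFD. The 95% interval of the brightest was −0.18 to 0.23 on NCD and −0.17 to 0.26 on HFD. Ncoa2 had 0.28 ± 0.12 (n = 5), 0.38 ± 0.07 (n = 5), 0.39 ± 0.12 (n = 4) and 0.38 ± 0.08 (n = 5) in the same order. Its log2 fold change was 0.10 on NCD (95% interval −0.04 to 0.25) and −0.01 on HFD (95% interval −0.17 to 0.14).

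The genotypes overlapped in the brightest probes of both receptors. Nr3c1, which encodes the glucocorticoid receptor, averaged 4.04 ± 0.16 (SD, n = 5) in CTR and 4.09 ± 0.15 (n = 5) in AR113Q arrays on NCD, and 4.22 ± 0.24 (n = 4) and 4.15 ± 0.10 (n = 5) on HFD. Its log2 fold change was 0.05 on NCD (95% interval −0.17 to 0.28) and −0.07 on HFD (95% interval −0.31 to 0.16), and its second probe gave 0.09 and −0.16. Esr1, which encodes estrogen receptor alpha, had −0.66 ± 0.24 (n = 5), −0.63 ± 0.14 (n = 5), −0.47 ± 0.26 (n = 4) and −0.63 ± 0.14 (n = 5) in the same order. Its 4 probes had log2 fold changes of 0.03 to 0.26 on NCD and −0.15 to 0.14 on HFD. The smallest adjusted p of any receptor probe was 0.133 on NCD and 0.362 on HFD. The 95% interval of the brightest Esr1 probe was −0.23 to 0.29 on NCD and −0.43 to 0.13 on HFD.

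Stub1 encodes a ubiquitin ligase that binds HSP90 and HSP70 and can act on steroid receptors. Its log2 signals were 4.24, 4.15, 4.22, 4.23 and 4.33 in the CTR-NCD and 4.12, 4.15, 4.08, 3.96 and 4.13 in the AR113Q-NCD arrays. The groups touched without overlapping. The log2 fold change was −0.15 on NCD (95% interval −0.27 to −0.03, adjusted p = 0.0925 from limma). On HFD the signals were 4.15, 3.96, 4.07 and 4.18 in the CTR and 3.97, 4.11, 4.01, 4.06 and 4.002 in the AR113Q arrays. The HFD log2 fold change was −0.06 (95% interval −0.19 to 0.07, adjusted p = 0.586), with the sign turned by quantile normalization, median centring and the authors' values. With Fkbp4, Fkbp5, Srd5a1 and Ncoa4, Stub1 was one of 5 of 9 members whose groups did not overlap on NCD, where 15.6% of all probes did not. On HFD it was 2 of 9 (Fkbp4 and Srd5a1), beside 15.7% of all probes. Here and for the diet, members are counted by their brightest probe, whereas the shares without overlap are over all tested probes.

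To ask whether the diet changed the transcripts, HFD was compared with NCD within each genotype. None of the 9 members was called in either genotype, and 0 genes of all were called in CTR (0%) and 5 in AR113Q (0.0202%). In CTR quadriceps 4 members had an unadjusted p under 0.05 in limma, beside 8.39% of all genes. These were Fkbp4 with a log2 fold change of −0.21 (95% interval −0.37 to −0.05, adjusted p = 0.474), Fkbp5 with 0.37 (0.08 to 0.66, adjusted p = 0.478), Ncoa4 with 0.17 (0.01 to 0.34, adjusted p = 0.556) and Stub1 with −0.14 (−0.27 to −0.02, adjusted p = 0.536). With normexp background correction the values of Fkbp4 (0.048) and Stub1 (0.23) turned sign. Every CTR-HFD array was below every CTR-NCD array for Fkbp4 and above for Fkbp5, whereas 2.73% of all probes did not overlap. The second probe of Nr3c1 (0.25) and 1 other probe of Esr1 (0.60, well above background on 17 arrays) also had an unadjusted p under 0.05. In AR113Q quadriceps 1 member had an unadjusted p under 0.05, beside 6.66% of all genes. It was Fkbp4, with −0.19 (95% interval −0.34 to −0.04, adjusted p = 0.609), and its groups overlapped, as did those of the other 8 members, while 2.04% of all probes did not. A probe of Ncoa1 that is not its brightest also had an unadjusted p under 0.05 (0.34).

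The level of Fkbp4 was highest in CTR-NCD (1.77 ± 0.08), followed by CTR-HFD (1.57 ± 0.07), AR113Q-NCD (1.40 ± 0.14) and AR113Q-HFD (1.21 ± 0.10). Of these neighbours the first pair did not overlap, and the others did. Fkbp5 had the order AR113Q-HFD (1.78 ± 0.26), CTR-HFD (1.60 ± 0.20), AR113Q-NCD (1.56 ± 0.21) and CTR-NCD (1.23 ± 0.12), and its arrays overlapped between neighbours except between the last pair. The genotype by diet interaction passed the test for 0 of 9 members and for 0% of all genes, and 0 members had an unadjusted p under 0.05 in limma, beside 4.6% of all genes. The interaction was 0.02 for Fkbp4 (95% interval −0.20 to 0.24; its sign turned in 5 of 30 alternatives), −0.15 for Fkbp5 (−0.55 to 0.24) and 0.25 for Srd5a1 (−0.25 to 0.75). The comparisons share groups, so their values are given side by side only.

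**Figure D3:**
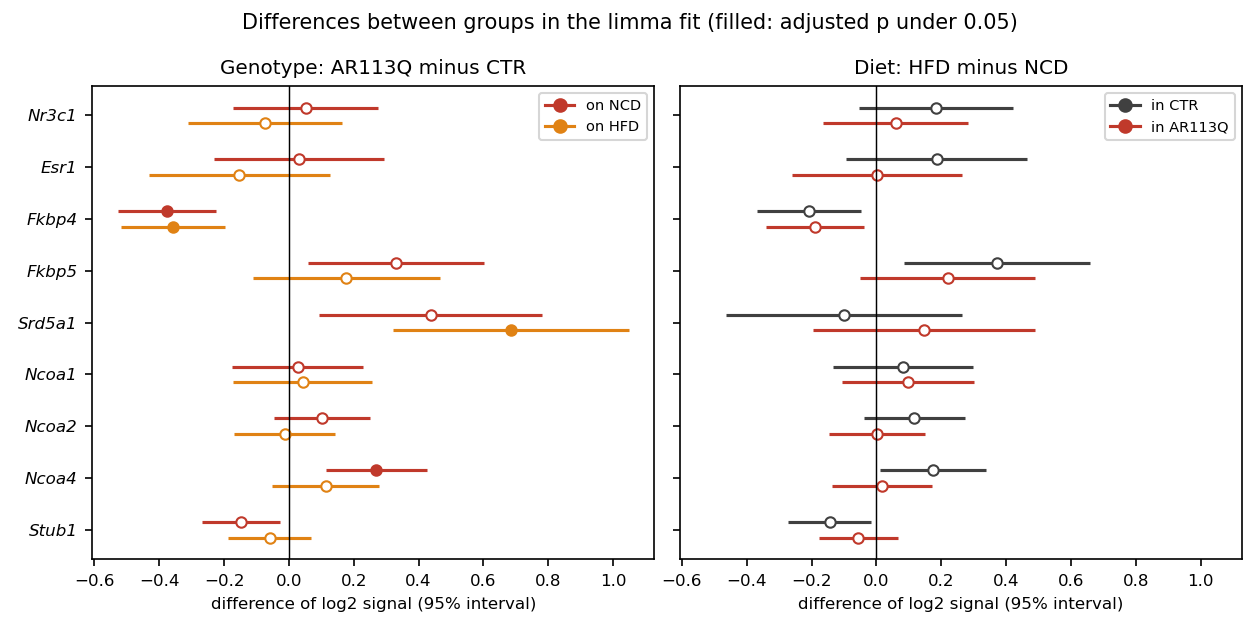
Differences of log2 signal between groups for the brightest tested probe of each member, with 95% intervals from the limma fit. Filled points have an adjusted p under 0.05. In the left panel Fkbp4 is filled on both diets, Ncoa4 on NCD and Srd5a1 on HFD, and in the right panel no point is filled.

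Members also varied together over the arrays. Nr3c1, Esr1, Ncoa1 and Ncoa2, whose groups overlapped, had Pearson's r of 0.73 to 0.84 in their 6 pairs over 19 arrays, of 36 pairs computed among the 9 members. Spearman's rho was 0.76 to 0.84, and the adjusted permutation p was 0.00036 to 0.00166 for r and 0.00024 to 0.000982 for rho. Leaving out the 2 arrays farthest from the median of the first gene left r at 0.66 to 0.84. With the group means removed r was 0.71 to 0.85, and with the slide means removed as well 0.63 to 0.95. For Nr3c1 and Ncoa1, r was 0.84 (permutation p = 1e-05, the smallest that the permutations can give). Other pairs ran in opposite directions, among them Ncoa4 with Stub1 (r −0.78), Fkbp4 with Ncoa4 (−0.77) and Fkbp4 with Srd5a1 (−0.72). With the group means removed these were −0.52, −0.36 and −0.38. No share over all gene pairs was computed, so such relations are not shown to be particular to the members.

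Fkbp4 and Stub1, the pair of cochaperone genes, differed between groups, so their relation was taken within each genotype. Each genotype pools both diets, and in either genotype both genes averaged lower on HFD than on NCD. The permutation p-values therefore also take in this diet difference, which was not removed. In CTR arrays r was 0.83 and rho 0.83 (n = 9, permutation p = 0.00358 and 0.00782, adjusted p = 0.0322 and 0.0704). In AR113Q arrays r was 0.81 and rho 0.83 (n = 10, permutation p = 0.00505 and 0.00469, adjusted p = 0.0672 and 0.0563). Without the 2 arrays farthest from the median of Fkbp4, r was 0.65 in CTR and 0.68 in AR113Q. With the group means removed r was 0.67 over the 19 arrays, and with the slide means removed as well it was 0.75. No p-value was computed for these coefficients. Arrays share the scaling factor and the quality of their RNA, and the part of either in these relations was not tested.

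**Figure D4:**
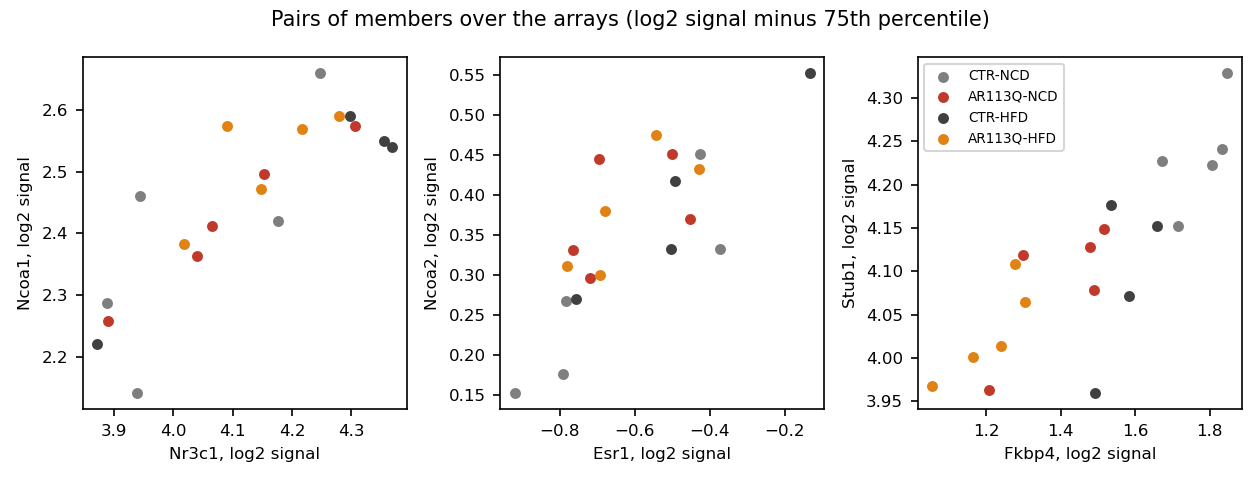
Log2 signals of 3 pairs of members, each point an array coloured by group (19 arrays). Nr3c1 with Ncoa1 and Esr1 with Ncoa2 rise together across overlapping groups (r of 0.84 and 0.79), and Fkbp4 with Stub1 runs from the AR113Q-HFD arrays at the lower left to the CTR-NCD arrays at the upper right.

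Among all genes tested, those most like a member over the 19 arrays were ranked by Pearson's r between brightest probes. For Fkbp4 they were Usp24 (r 0.94), Zfp532 (0.94) and Pcca (0.94), which fell to 0.77, 0.72 and 0.58 once group means were removed. For Srd5a1 they were Galk1 (0.96), Vps37d (0.93) and Arpin (0.90), with 0.89, 0.83 and 0.79 without group means. Ncoa4 was closest to Zfp617 (0.93), Rbm8a (0.91) and Psmd10 (0.91), and Stub1 to Tagap1 (0.94), Ubl7 (0.93) and Spring1 (0.93). The closest to Fkbp5 were Wdr59 (0.82), Nono (0.80) and Pold3 (0.80). Nr3c1 was closest to Ppp3ca (0.92), Zfp212 (0.92) and Ormdl1 (0.89), and Esr1 to Vps54 (0.91), Bzw1 (0.89) and Rnf11 (0.88). Ncoa1 was closest to Lipo3 (0.89), Ppp3ca (0.89) and Rab6a (0.89), and Ncoa2 to Akr1b3 (0.90), Naf1 (0.86) and Akap9 (0.86). Each gene was picked for its coefficient out of all genes tested, so no test is given.

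The other genes of the pathway were read from lists by role. Their counts stand beside the 17.4% of all genes called on NCD and the 18% called on HFD, in either direction. With normexp background correction most were lower. Then 0 chaperones and 0 ligases were called on either diet, and of the coregulators 2 rose and none fell on each diet. Of the steroid enzymes 1 rose and 1 fell on NCD and 0 were called on HFD. Of the glucocorticoid-responsive genes 2 rose and 2 fell on NCD, and 1 rose and 3 fell on HFD. The 3 falls of androgen-responsive genes stayed at 3 on each diet. Of the calls named here, those of Smox, Odc1, Mylk4, Fbxo32, Sgk1 and Cdkn1a on both diets, Hsd17b4, Hsd17b7 and Sesn1 on NCD, and Kat2b, Prmt2 and Bcl6 on HFD were kept by 4 of 4 other scalings, and each of the others was lost with at least 1. Kept by 0 were the calls of Ptges3 on NCD and of Mdm2, Crebbp and Trim63 on HFD. Those of Ppid, of Rnf4 and of Ptges3, Ncoa3 and Ube3a on HFD and Hspa4 on NCD were kept by 1. No gene passed the test among the other steroid and estrogen-related receptors, of which 6 of 7 were tested (Nr3c2, Esr2, Esrra, Esrrb, Esrrg and Gper1), on either diet. The widest values were those of Esrrb on NCD with 1.17 (adjusted p = 0.146 from limma) and of Esrrg with 0.88 (adjusted p = 0.218). Of 20 chaperones and cochaperones tested, 5 rose and 2 fell on NCD, and 3 rose and 2 fell on HFD. Bag3, a cochaperone of selective autophagy, rose by 0.61 on NCD (adjusted p = 0.00849) and 0.57 on HFD (0.0178). St13, another cochaperone on the list, rose by 0.33 and 0.24 (0.00669 and 0.049). Ptges3, which encodes the p23 cochaperone of HSP90, had −0.23 and −0.46 (0.0271 and 0.000281), with the sign on NCD turned by normexp background correction. Ppid, the immunophilin that competes with Fkbp4 for HSP90, had −0.38 and −0.36 (0.00931 and 0.0197). Hspa4 (0.34), Dnajb1 (0.48) and Cdc37 (0.20) rose on NCD, and Bag2 (0.36) on HFD. The median of the list was 0.10 on NCD and −0.02 on HFD.

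Of 34 further coactivators and corepressors, 8 rose and 3 fell on NCD, and 4 rose and 3 fell on HFD. The acetyltransferase Kat2b rose by 0.44 on NCD (adjusted p = 0.00551 from limma) and 0.64 on HFD (0.000407), and the methyltransferase Prmt2 by 0.42 (0.00803) and 0.62 (0.00056). Crebbp, the acetyltransferase CBP that expanded polyglutamine proteins are known to bind, had −0.38 (0.00257) and −0.29 (0.0203). Carm1 (−0.44) and Smarcd3 (−0.44) fell on NCD, where Sirt1 (0.34), Rbm14 (0.34) and Kdm1a (0.31) rose. Hdac3 (−0.36) and Ncoa3 (−0.34), the closest relative of Ncoa1 and Ncoa2 on the list, fell on HFD, where Pias1 (0.24) and Rnf4 (0.22) rose, as both did on NCD (0.20 and 0.20). The median of the list was 0.08 on NCD and 0.03 on HFD. Of the 9 genes listed as ligases of the receptor or as the deubiquitinase Usp10, 3 fell on NCD and 4 on HFD, and none rose. Mdm2 had −0.28 on both diets (adjusted p = 0.0255 and 0.0306), Usp10 −0.35 and −0.46 (0.0109 and 0.00256) and Ubr3 −0.41 and −0.59 (0.0266 and 0.00403). Ube3a had −0.24 on HFD (0.0408).

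Of 22 tested enzymes of steroid metabolism, 1 rose and 2 fell on NCD, and 2 rose and 1 fell on HFD. Hsd17b7 had −0.76 on NCD (adjusted p = 0.00469 from limma) and −0.64 on HFD (0.0195). Sts, the sulfatase that frees steroids from their sulfates, had −0.46 (0.00646) and Hsd17b4 0.48 (0.000432) on NCD. On HFD, Srd5a3, a relative of Srd5a1, rose by 0.44 (0.0181) and the estrogen sulfotransferase Sult1e1 by 1.28 (0.0104).

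Genes that respond to androgens or to glucocorticoids were read beside the receptors. These lists were chosen with earlier results of these data known, so their counts are description only and no reading of receptor activity. Of 7 androgen-responsive genes tested, 3 fell on each diet. Smox, which encodes spermine oxidase, had a log2 fold change of −3.46 on NCD (standard error 0.19, adjusted p = 1.22e-08 from limma) and −2.89 on HFD (standard error 0.20, adjusted p = 4.25e-07). Odc1, the first enzyme of polyamine synthesis, had −1.76 and −1.40, and the kinase gene Mylk4 had −2.31 and −2.44. Calcr had 0.59 on NCD (adjusted p = 0.0399), with the sign turned by normexp background correction. Of 27 glucocorticoid-responsive genes, 5 rose and 5 fell on NCD, and 3 rose and 7 fell on HFD, with medians of 0.15 and 0.00. The atrophy ligase gene Fbxo32 had −1.76 and −1.69 (adjusted p = 1.17e-05 and 3.03e-05) and the kinase gene Sgk1 −1.31 and −1.48 (0.000322 and 0.000186). Cdkn1a rose by 0.94 and 1.11 (0.00608 and 0.00281). Trim63 (−0.65 and −0.50) and Bcl6 (−0.61 and −0.93) fell on both diets. Sesn1 (0.55), Foxo1 (0.48) and Mt1 (0.71) rose on NCD, where Fkbp5 had its 0.33. On HFD, Tsc22d3 (−0.66) fell, and Mt2 (0.83) and Lcn2 (0.71) rose.

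**Figure D5:**
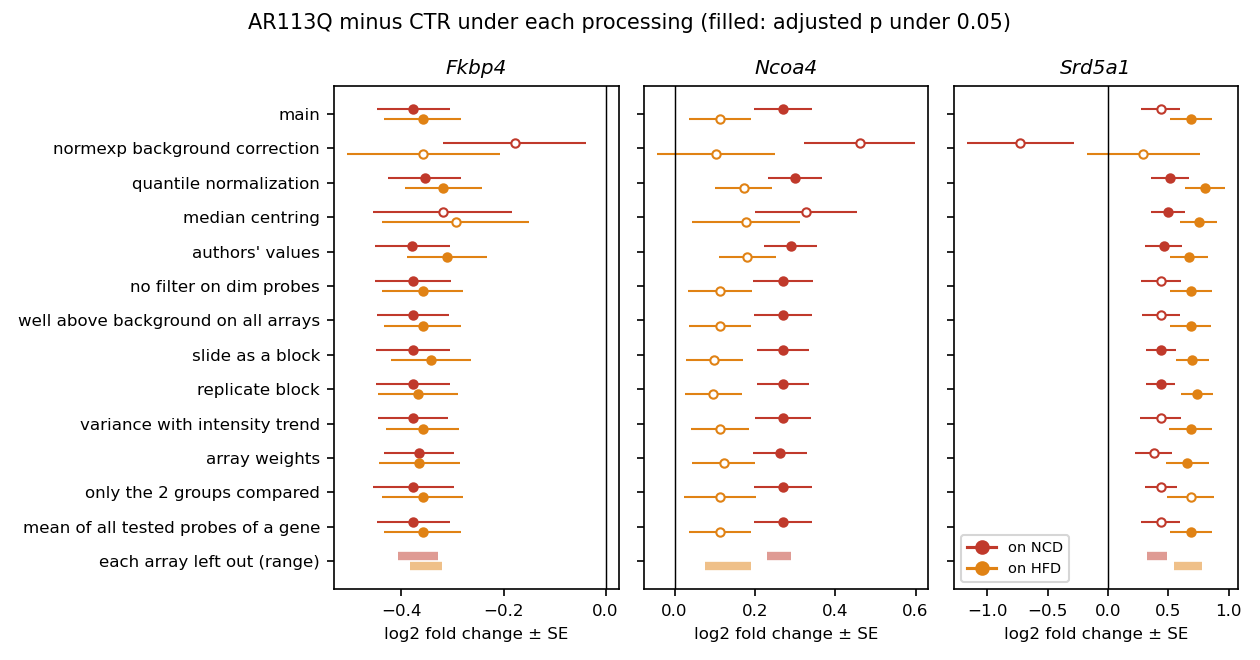
Log2 fold change of AR113Q against CTR for Fkbp4, Ncoa4 and Srd5a1 under each processing, with its standard error. Red is NCD and orange HFD, filled points have an adjusted p under 0.05, and the bars at the foot span the values with each array left out in turn. Fkbp4 stays below 0 throughout and loses its calls with normexp background correction and median centring. Srd5a1 falls below 0 on NCD with normexp background correction.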

How the data were processed

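Quadriceps RNA was hybridized to one-colour Agilent mouse arrays. Per the file headers, the deposited intensities were made by the authors with Feature Extraction 10.7.3.1, which subtracts the background, with no normalization between arrays. A deposited table of log2 values (25944 rows), whose normalization is not given in the sources used here, served as an alternative. Groups follow the sample labels.

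Control and outlier spots were dropped, log2 values were averaged per probe, and each array was centred on its 75th percentile. Testing required 0.5 or more of the spots of a probe to be well above background, on 4 or more of the 19 arrays (32026 probes passed). Gene names were updated through RefSeq (27655 probes by accession, 3717 by symbol or synonym, 8057 kept their name). The number of arrays limits the precision. Between 67.1% and 80.1% of probes per array were well above background.

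A limma model (version 3.58.1, R 4.3.3) held all 4 groups, and p-values were adjusted by Benjamini-Hochberg over the tested probes. Single probes were tested by exact permutation, and relations over arrays with 100000 permutations. Replicate numbers follow the slides, apart from CTR-HFD replicate 4. Deviations from the group means correlated in 5 of 5 same-numbered pairs of AR113Q-NCD and CTR-NCD (r 0.24 to 0.45), so these were taken as paired by slide. This pairing enters the within-slide differences and the block alternatives only. The main fit and the exact permutation tests used no block. Tests were checked on simulated data. The simulated noise was independent between arrays, so the check does not cover variation shared by the arrays of a slide. Alternatives were other background correction, scaling, filters, slide and replicate blocks, variance models, fewer groups, averaged probes and each array left out. The genes named are all members, the called genes of the lists (at most 8 per list and comparison, by size of change) and the 3 genes most like each member. Members and lists were chosen with earlier results of these data known. Figures were drawn with matplotlib 3.10.9. The authors' other assays were not analysed here, and the targeted gene is not reported here.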

Additional observations from a re-analysis of the deposited data

Results flagged for a closer look

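In 6 of 64 sets of 4 or 5 arrays (a probe in a group), 1 array stood apart from the rest of its group by a gap that Dixon's test calls at 95%, while chance gives about 1 in 20. Srd5a1 was low in CTR-NCD replicate 5 (log2 signal −4.60). In CTR-HFD replicate 3, Ncoa1 was low on 2 of its probes (2.22 and 1.45) and Nr3c1 on its brighter probe (3.87). The other Nr3c1 probe was high in CTR-HFD replicate 2 (−1.20). A dim Esr1 probe was low in AR113Q-HFD replicate 5 (−5.67).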

How the results depend on the processing

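Among the genotype comparisons, Fkbp4, Ncoa4 and Fkbp5 kept their direction under every alternative run, on NCD, on HFD and averaged over diets. With normexp background correction, 0 members were called on NCD, on HFD and averaged over diets, and all probes shifted by a median of −0.55 on NCD, −0.02 on HFD and −0.31 averaged. The other scalings shifted that median by less than 0.1. Median centring left 1 member called on NCD and 1 on HFD (Srd5a1 in both). Fitting only the 2 groups compared left 1 on HFD, and a variance trend gave 5 averaged over diets. With the replicate number as a block, 3 members were called on NCD (Srd5a1 was added, adjusted p = 0.0205), 2 on HFD and 3 averaged, and no other call of a member changed. On HFD, 3 of 4 same-numbered pairs share a slide, but deviations correlated above 0.1 in 2 of 4, so these arrays were not taken as paired. With each array left out in turn, 2 to 3 members were called on NCD, 2 on HFD and 3 to 5 averaged over diets, where 5 came without CTR-HFD replicate 2. Only Srd5a1 averaged over diets was a called value that turned, to −0.22 with normexp correction (adjusted p = 0.596).

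The other genotype values that turned sign were not called. With normexp correction they were Esr1 (−0.081), Srd5a1 (−0.73) and Stub1 (0.15) on NCD, and Nr3c1 (0.14) and Stub1 (0.030) averaged. Quantile normalization turned Nr3c1 (0.047) and Stub1 (0.055) on HFD and Nr3c1 averaged (0.089). Median centring turned Ncoa2 (0.051) and Stub1 (0.0058) on HFD, and Esr1 (0.000305) and Nr3c1 (0.051) averaged. The authors' values turned Ncoa1 on NCD (−0.023), Stub1 on HFD (0.063), and Nr3c1 (0.043) and Stub1 (0.0018) averaged. The mean of all probes of a gene turned Ncoa1 on NCD (−0.049) and Esr1 averaged (0.068). With each array left out, values ranged over 0 for Esr1 on NCD (−0.034 to 0.10), Ncoa1 on NCD (−0.036 to 0.093), on HFD (−0.042 to 0.081) and averaged (−0.0078 to 0.068), Ncoa2 on HFD (−0.054 to 0.040), and Nr3c1 on NCD (−0.0017 to 0.10) and averaged (−0.069 to 0.016). Of 27 diet and interaction values, 11 turned under at least 1 alternative, and none was called under any. Except where the alternative itself uses fewer samples, the cause was not tested.

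Over all probes, 2654 were higher and 2971 lower in AR113Q on NCD, against 414 and 404 with normexp correction, 3134 and 2698 with quantile normalization, 1337 and 1051 with median centring, 2441 and 2085 with the authors' values, and 3040 and 4169 with the replicate block. On HFD these were 2562 and 3179, then 382 and 551, 3287 and 2512, 1496 and 958, 2507 and 1890, and 2732 and 4256. Slide as a block gave 3165 and 4691 on NCD and 3154 and 5806 on HFD.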
